A study of Mus musculus with 8 samples.

Results

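The genes described here build the machinery that divides and joins mitochondria: Dnm1l, Fis1, Mff, Mief1 and Mief2 for division (fission), Mfn1, Mfn2 and Opa1 for joining (fusion), and Oma1 and Yme1l1, which encode proteases of the inner membrane. They were chosen by name, and all 10 were found by Entrez identifier among the 27179 genes counted. RNA was sequenced from thymic epithelial cells (TECs) of C57BL/6 mice, the thymic stroma that supports and screens developing T cells. The groups were medullary cells (mTECs) labelled as a knockout of Mcl1 (KO mTEC, 1 library), wild-type mTECs (WT mTEC, 2 libraries), cortical cells (cTECs) labelled as the knockout (KO cTEC, 1 library) and wild-type cTECs (WT cTEC, 4 libraries). The sources used here do not give how or in which cells Mcl1 was deleted, or the age of the mice. Nothing says whether the libraries of a group came from separate animals, so p-values measure only the spread between these libraries, which may be technical. Each KO group is 1 library and has no replicate check.

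Mitochondria fuse and divide continuously. DRP1, the dynamin-related GTPase encoded by Dnm1l, is recruited from the cytosol to the outer membrane by adaptors, among them MFF, MiD51 (Mief1), MiD49 (Mief2) and FIS1, and constricts the organelle. The mitofusins MFN1 and MFN2 tether and fuse outer membranes, while OPA1 fuses inner membranes and shapes cristae. YME1L and OMA1 cut OPA1 into short forms, OMA1 mainly under stress. MCL-1, a pro-survival protein of the BCL-2 family, sits in the outer membrane, and a shorter form in the matrix has been linked to cristae structure and fusion. Transcript counts carry no information on OPA1 cleavage, on DRP1 phosphorylation or on the shape of the mitochondria.

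Mfn2 and Mfn1 encode closely related proteins, and Mfn2 was the only one of the 10 that passed the edgeR test in any comparison. In mm10 the Mfn2 gene lies at chr4:147873586-147904909 and the Mfn1 gene at chr3:32529443-32579225. The stretches upstream of both genes are shown because the results turn on this pair. They come from RefSeq (GRCm38.p6, the same assembly as mm10) and run from 250 to 51 bases before a start site, 5′ to 3′ on the gene's own strand. The start is the most upstream one in the promoter set used. It is 147904909 for Mfn2 and 32529482 for Mfn1, the latter inside the gene span given above. Capitals mark matches to the letters searched on both strands: GGGCGG, the GC box bound by SP1; CCAAT, bound by NF-Y; and AANATGGCG, a form of the YY1 motif.
Mfn2, chr4:147904960-147905159, minus strand: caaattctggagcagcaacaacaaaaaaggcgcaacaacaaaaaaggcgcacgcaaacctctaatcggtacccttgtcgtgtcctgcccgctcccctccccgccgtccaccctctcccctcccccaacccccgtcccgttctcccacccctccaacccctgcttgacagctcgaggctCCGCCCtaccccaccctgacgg
Mfn1, chr3:32529232-32529431, plus strand: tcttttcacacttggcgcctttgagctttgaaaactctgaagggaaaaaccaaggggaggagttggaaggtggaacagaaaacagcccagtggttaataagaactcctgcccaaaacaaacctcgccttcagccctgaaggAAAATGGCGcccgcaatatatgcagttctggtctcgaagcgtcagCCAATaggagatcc

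The Mfn2 stretch was 62.5% G and C and held 1 GC box, and the Mfn1 stretch was 49.0% G and C and held 1 CCAAT match and 1 YY1 match. The GC box letters were found in 7 of the 10 genes and in 24.6% of 27025 genes in the same window. Those 27025 are all genes of the promoter set, expressed here or not, while the 10 genes are all expressed. The shares among expressed genes were not computed. CCAAT was found in 6 of the 10 and in 28.9% of all genes, and the YY1 letters in Mfn1 alone of the 10 and in 0.858% of all genes. The ETS core CCGGAAG was present at Mief1 and Yme1l1 and in 4.02% of all genes. Neither the palindrome bound by NRF1 nor TNAAGGTCA, the element of the oestrogen-related receptors, was found in these 10 windows, and they were found in 0.429% and 0.944% of all genes. The Oma1 and Yme1l1 windows lay inside the span of their genes, and those of Mief1 and Opa1 reached into it. A match describes the letters only and says nothing of binding.

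Library totals ran from 11516780 to 19171953 counts. Levels are given as CPM, the count scaled to a common library total. The knockout target Mcl1 was at 75.6 CPM in KO mTEC, against 107 and 206 CPM in WT mTECs, and at 8.36 CPM in KO cTEC, against 236 to 308 CPM in WT cTECs. Its change in KO mTEC was -1.01 on the log2 scale (adjusted p = 0.538, edgeR) and passed in none of 11 alternatives run (-1.38 to -0.52, adjusted p from 0.138 to 0.999), so a loss of the target RNA is not established in that library, and KO mTEC below names the labelled genotype. In KO cTEC the change of Mcl1 was -4.97 by edgeR and passed in all 11 alternatives run (adjusted p up to 0.00173). Marker sums separated the labelled populations: the summed level of 8 cTEC markers was 1748 CPM in KO mTEC, 1454 to 1716 CPM in WT mTECs, 9209 CPM in KO cTEC and 4277 to 9295 CPM in WT cTECs. The sum of 7 mature mTEC markers was 22292 CPM in KO mTEC, 19050 to 22168 CPM in WT mTECs, 11199 CPM in KO cTEC and 9680 to 15488 CPM in WT cTECs. That sum hides a change within KO cTEC, where 6 of the 7 mature mTEC markers were called lower than in WT cTECs (median log2 fold change -4.99) and Aire was at 0, while 4 of the 8 cTEC markers were called higher. The libraries also differed in content that the labels do not name. Tuft cell markers summed to 39.4 CPM in KO cTEC, with 4 of 8 at 0 (Trpm5, Gnat3, Rgs13 and Hepacam2), against 1048 to 1722 CPM in WT cTECs. Immediate-early genes summed to 6763 CPM in KO cTEC, against 3506 CPM in WT cTEC 1 and 20597 to 29612 CPM in WT cTECs 2 to 4. In such bulk samples, fewer cells of a type and less RNA per cell cannot be told apart.

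The 10 genes were all expressed in every library, with 130 to 4179 counts each, and all passed the filter on low counts. Per kilobase of the length listed beside the counts, the adaptor gene Fis1 ranked first and Mff second in each of the 4 groups. In KO mTEC, Fis1 was at 187 CPM per kb and Mff at 76.5 CPM per kb, and in WT mTECs the means were 199.5 ± 2.38 and 67.3 ± 3.00 CPM per kb (SD, n = 2). In KO cTEC they were at 158.7 and 103.0 CPM per kb, and in WT cTECs the means were 154.2 ± 18.6 and 72.0 ± 9.02 CPM per kb (SD, n = 4). Mief2 had the lowest level in WT mTEC, KO cTEC and WT cTEC, at 4.33 ± 0.082 (SD, n = 2), 4.40 and 4.28 ± 1.46 CPM per kb (SD, n = 4), while in KO mTEC Mief1 (4.75 CPM per kb) and Mief2 (4.92 CPM per kb) stood next to each other. Neighbours in this order were often within their spread: Opa1 and Mfn2 in WT mTECs, for example, were at 6.45 ± 0.301 and 6.21 ± 0.688 CPM per kb (SD, n = 2).

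**Figure D1:**
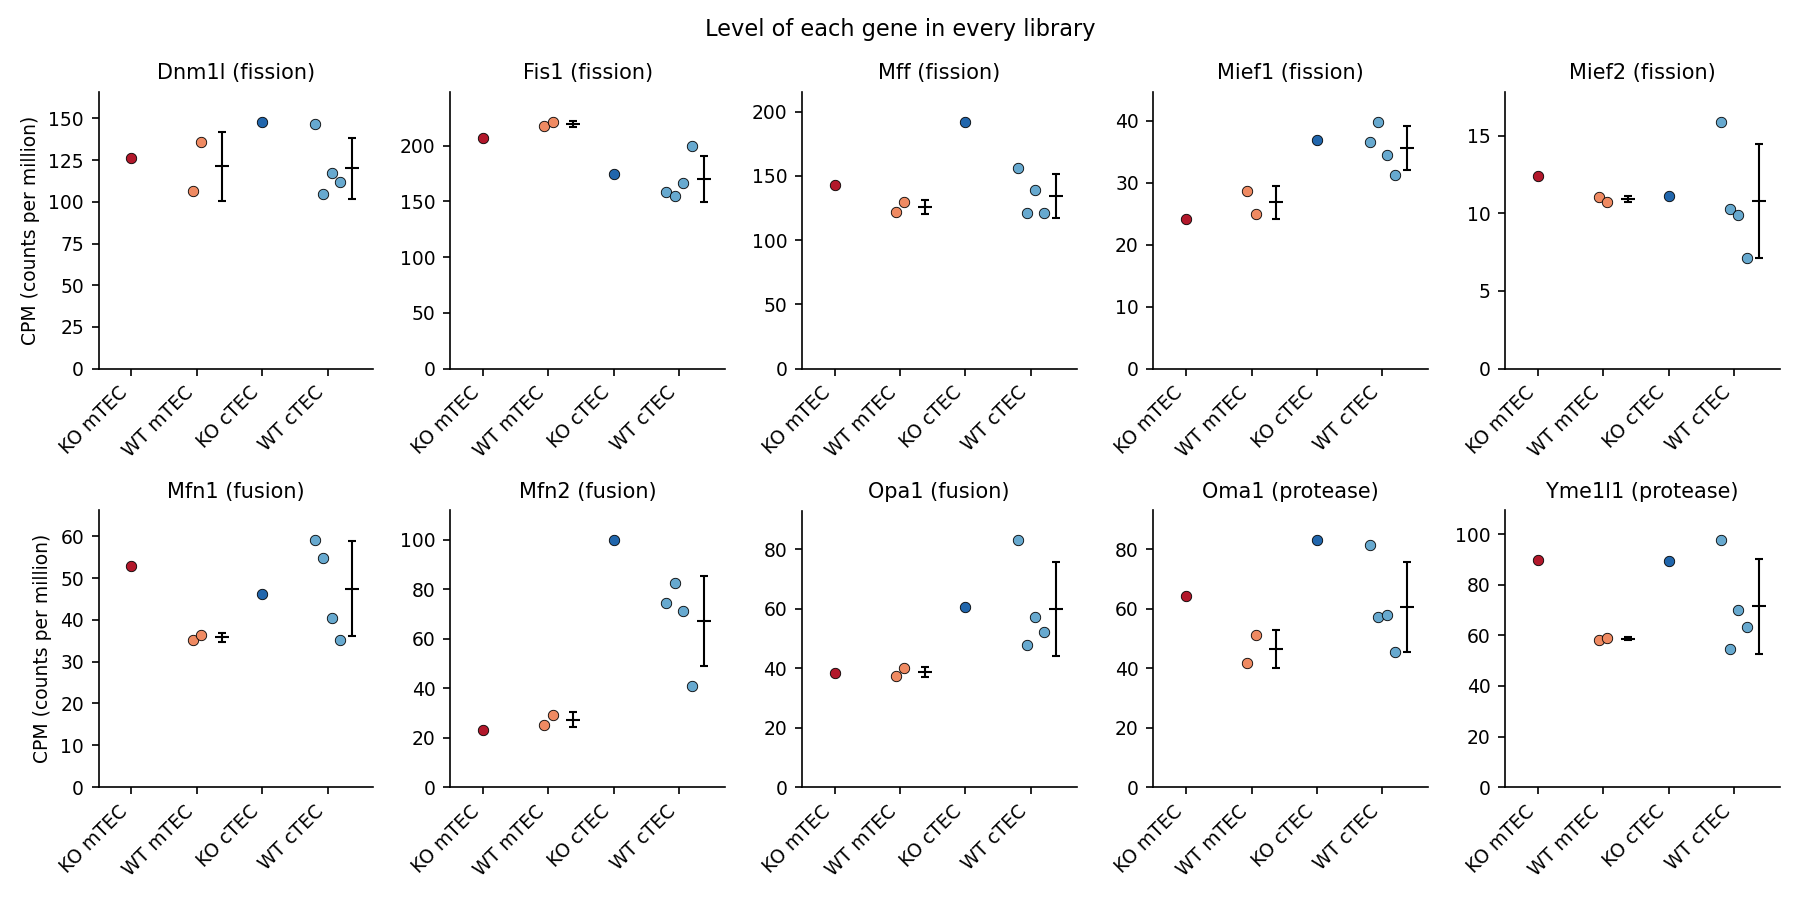
CPM of each of the 10 genes (vertical axis, from 0) in KO mTEC, WT mTEC, KO cTEC and WT cTEC libraries. Each point is 1 library and bars are the mean ± SD of the WT groups. Mfn2 is below 30 CPM in all 3 mTEC libraries and between 41.0 and 99.8 CPM in the 5 cTEC libraries, while the WT groups overlap for Dnm1l.

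Among the fission genes, Dnm1l had the narrowest span of the 10. Its value was 126.5 CPM in KO mTEC, 106.7 and 135.8 CPM in WT mTECs 1 and 2, 148.1 CPM in KO cTEC, and 146.4, 104.8, 117.3 and 111.8 CPM in WT cTECs 1 to 4. WT mTECs and WT cTECs overlapped, and KO cTEC was just above the highest WT cTEC library. Over the 8 libraries Dnm1l spanned 0.50 on the log2 CPM scale, and 97.7% of the 18163 genes tested spanned more.

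Fis1 had 206.6 CPM in KO mTEC, 218.0 and 221.7 CPM in WT mTECs, 174.9 CPM in KO cTEC, and 158.9, 154.7, 166.3 and 199.9 CPM in WT cTECs. Both WT mTEC libraries were above every WT cTEC library. For Mff, the main recruiter of DRP1 in many mammalian cells, the values were 142.7 CPM in KO mTEC, 121.6 and 129.5 CPM in WT mTECs, 192.2 CPM in KO cTEC, and 156.3, 120.9, 139.2 and 121.4 CPM in WT cTECs. Here the KO library was the highest within each population, and the WT groups overlapped.

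The paired adaptors MiD51 and MiD49 were at lower levels. Mief1 was at 24.1 CPM in KO mTEC, 28.7 and 25.0 CPM in WT mTECs, 36.8 CPM in KO cTEC, and 36.6, 39.8, 34.5 and 31.3 CPM in WT cTECs, so that all mTEC libraries were below all cTEC libraries. Mief2 was at 12.4 CPM in KO mTEC, 11.1 and 10.8 CPM in WT mTECs, 11.1 CPM in KO cTEC, and 15.9, 10.3, 9.87 and 7.10 CPM in WT cTECs. Its range within WT cTECs was wider than the span of all other groups together.

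Within the fusion genes, Mfn2 showed the widest span, 2.03 on the log2 CPM scale. Its level was 23.0 CPM in KO mTEC, 25.0 and 29.3 CPM in WT mTECs, 99.8 CPM in KO cTEC, and 74.2, 82.6, 70.9 and 41.0 CPM in WT cTECs. All mTEC libraries were below all cTEC libraries, and KO cTEC was the highest library. Even so, 44.8% of all genes tested spanned more than Mfn2.

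Mfn1 was at 52.9 CPM in KO mTEC, 35.1 and 36.5 CPM in WT mTECs, 46.3 CPM in KO cTEC, and 59.1, 54.9, 40.5 and 35.3 CPM in WT cTECs. The WT groups overlapped, because WT cTEC 4 was as low as the WT mTEC libraries. Opa1 was at 38.2 CPM in KO mTEC, 37.5 and 40.0 CPM in WT mTECs, 60.7 CPM in KO cTEC, and 83.1, 47.9, 57.0 and 52.1 CPM in WT cTECs. Like Mfn2 and Mief1, it was lower in all 3 mTEC libraries than in any cTEC library. Between the WT groups alone, 26.7% of all genes tested were below in mTECs. The share that separates over all 8 libraries was not computed.

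Of the protease genes, Oma1 was at 64.3 CPM in KO mTEC, 41.8 and 51.0 CPM in WT mTECs, 83.1 CPM in KO cTEC, and 81.5, 57.1, 58.0 and 45.4 CPM in WT cTECs. Yme1l1 was at 90.0 CPM in KO mTEC, 58.2 and 59.1 CPM in WT mTECs, 89.6 CPM in KO cTEC, and 97.7, 54.5, 70.2 and 63.5 CPM in WT cTECs. For both genes the KO mTEC library was above both WT mTEC libraries, and the WT populations overlapped. Part of the Yme1l1 gene overlaps Mastl (583 bases), and part of Mfn1 overlaps Gnb4 (639 bases), while Mff and Oma1 overlap annotated long non-coding RNAs and Mief2 a miRNA gene. The strand setting of the counting is not given, so reads in those stretches cannot be assigned with certainty.

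WT cTEC libraries were not interchangeable for these genes. Of the 10, 7 were highest in WT cTEC 1 (Dnm1l, Mff, Mfn1, Mief2, Oma1, Opa1 and Yme1l1), while 5 were lowest in WT cTEC 2 and the other 5 in WT cTEC 4. WT cTEC 1 is also the library with the low immediate-early sum given above. The part of that sum in the values of the 10 genes was not tested.

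Setting WT mTECs against WT cTECs gives the difference between the populations while Mcl1 is intact. Mfn2 fell in mTECs to a mean of 27.2 ± 3.01 CPM (SD, n = 2), against 67.2 ± 18.2 CPM in cTECs (SD, n = 4). The log2 fold change was -1.26 ± 0.27 (SE), or 0.419-fold, with a 95% interval of -1.88 to -0.63 and an adjusted p of 0.0138 (edgeR quasi-likelihood test, Benjamini-Hochberg over all genes). It was the 1 gene called of 10, where 27.0% of all genes were called, 13.2% higher and 13.9% lower. The call rests on 2 mTEC libraries: the change was -1.19 without WT mTEC 1 (adjusted p = 0.110) and -1.32 without WT mTEC 2 (adjusted p = 0.106), with the remaining mTEC library assumed to vary like the other groups. Dendritic cell and macrophage markers summed to 758 to 1087 CPM in WT mTECs, with 0 of 10 at 0, against 148 to 251 CPM in WT cTECs, with up to 4 at 0. Immediate-early genes summed to 1712 to 2645 CPM in WT mTECs, against 3506 to 29612 CPM in WT cTECs, with 12 of 14 called lower. Tuft cell markers summed to 716 to 858 CPM in WT mTECs, against 1048 to 1722 CPM in WT cTECs, with 4 of 8 called lower and 0 higher. Fibroblast markers summed to 149 to 169 CPM in WT mTECs, against 711 to 957 CPM in WT cTECs, with 2 of 7 called lower and 0 higher. The part of these, and of the mitosis genes given below, in the Mfn2 change was not tested.

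Of the other 9 genes none passed in this comparison by edgeR with all libraries. Opa1 had a log2 fold change of -0.58 (95% interval -1.11 to -0.05, adjusted p = 0.0977) and Fis1 one of 0.42 (95% interval 0.05 to 0.79, adjusted p = 0.0884), and for both the WT groups did not overlap. DESeq2 called Fis1 (adjusted p = 0.0214), and so did edgeR without WT cTEC 4 (adjusted p = 0.0422). Mief1, the other gene whose WT groups did not overlap, had a log2 fold change of -0.35 (adjusted p = 0.197). In all, 4 of 10 genes did not overlap between the WT groups, against 54.6% of all genes tested: 1 was higher (27.9% of all genes) and 3 were lower (26.7%). The 95% intervals ran from -0.34 to 0.46 for Dnm1l and from -0.41 to 0.31 for Mff, on the log2 scale. The median log2 fold change of the 10 was -0.28, against 0.06 over all genes tested and -0.12 over the 11991 genes whose average log2 CPM was 3 or more, as it is for all 10.

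**Figure D2:**
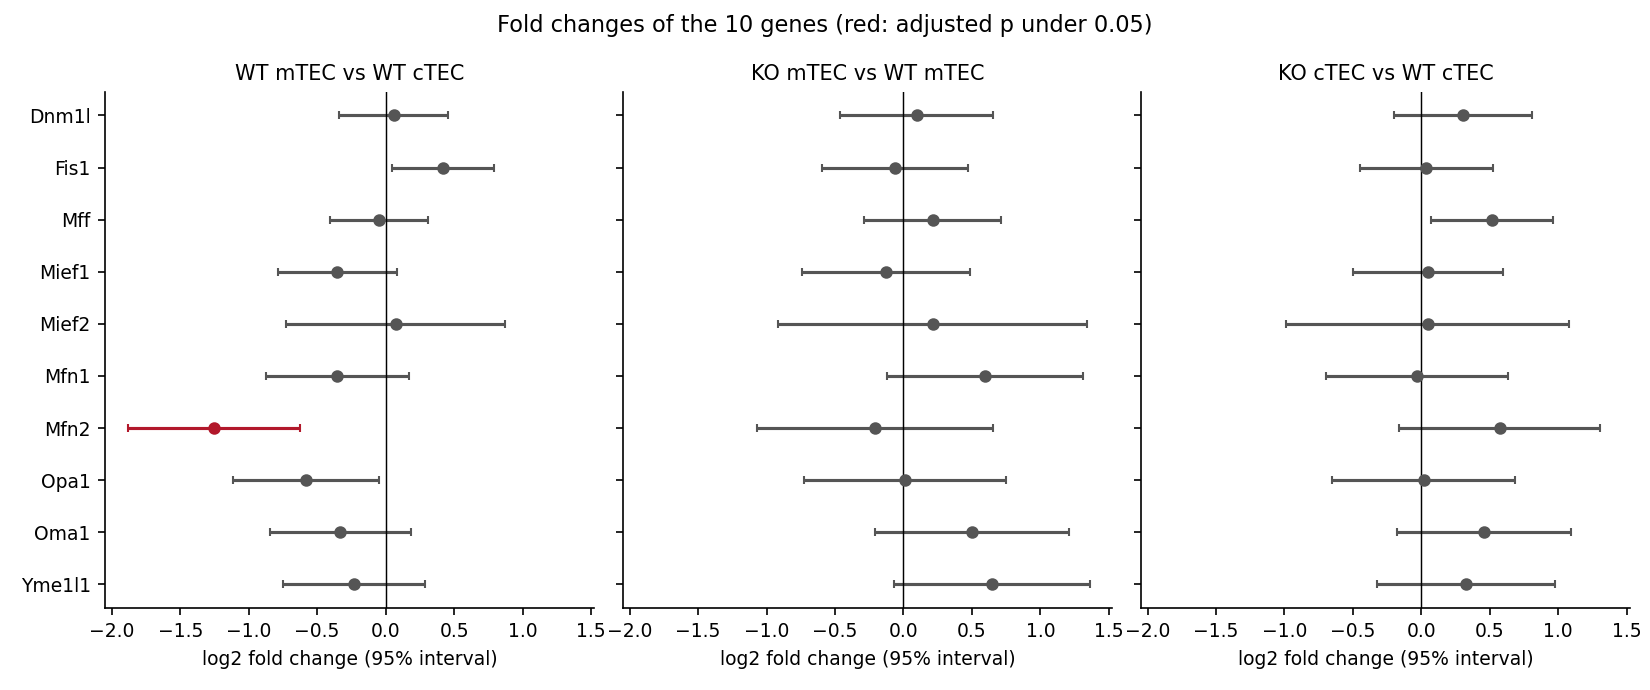
Log2 fold change (horizontal axis) of each gene with its 95% interval, for WT mTEC against WT cTEC, KO mTEC against WT mTEC and KO cTEC against WT cTEC. Mfn2 in the first comparison (-1.26) is the only gene that passes, drawn in red, and the intervals of most others include 0.

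Because the paralogues Mfn1 and Mfn2 were counted in the same libraries, their ratio does not depend on library size. Per kilobase, Mfn2 over Mfn1 was 0.450 in KO mTEC, 0.738 and 0.831 in WT mTECs, 2.23 in KO cTEC, and 1.30, 1.56, 1.82 and 1.20 in WT cTECs. Per kilobase, Mfn1 was thus the higher of the mitofusin transcripts in each mTEC library, and Mfn2 in each cTEC library. Between the WT groups the mean log2 ratio differed by -0.89. The two-sided exact permutation test gave p = 0.133, the smallest that 2 against 4 libraries allow. In the same permutation test the adjusted p over the 5 ratios computed was 0.222. This result was not particular to the mitofusins. Fis1 over Mff (0.47) and Dnm1l over Opa1 (0.61), as differences in mean log2 ratio, reached the same smallest value in that test. Mief1 over Mief2 (-0.48) and Yme1l1 over Oma1 (0.11) did not. The mitofusin ratio contains Mfn2, called above, so it is not independent of that call.

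Summed per kilobase, the 3 fusion genes were at 23.3 CPM per kb in KO mTEC, 19.7 and 21.4 in WT mTECs, 43.1 in KO cTEC, and 43.8, 39.0, 34.6 and 25.8 in WT cTECs. The 5 fission genes were at 304.7 CPM per kb in KO mTEC, 299.3 and 313.2 in WT mTECs, 309.8 in KO cTEC, and 277.5, 242.9, 265.1 and 283.0 in WT cTECs. The fission sum over the fusion sum was 13.1 in KO mTEC, 15.2 and 14.6 in WT mTECs, 7.18 in KO cTEC, and 6.33, 6.23, 7.65 and 10.96 in WT cTECs. Each mTEC library lay above each cTEC library. Fis1 makes up most of the fission sum.

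**Figure D3:**
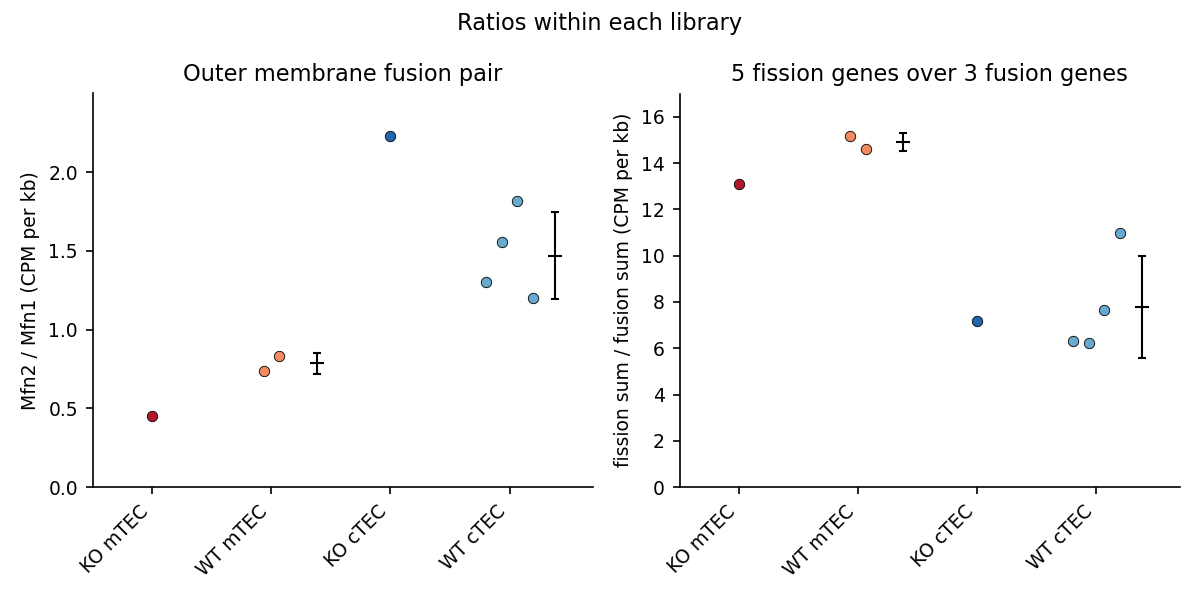
Mfn2 over Mfn1 (left) and the sum of 5 fission genes over the sum of 3 fusion genes (right), both from CPM per kb, in each library, with mean ± SD for the WT groups. The mTEC libraries lie at 0.450 to 0.831 on the left, below every cTEC library, and at 13.1 to 15.2 on the right, above every cTEC library.

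In the medulla, KO mTEC was set against WT mTECs. None of the 10 genes passed by edgeR, DESeq2 or limma-voom, and 0 had an unadjusted p under 0.05 by edgeR. Over all genes, edgeR called 0% of 18163, with 1502 at an unadjusted p under 0.05, while DESeq2 called 139 and limma-voom 0. The differences were Yme1l1 0.65 (95% interval -0.07 to 1.36), Mfn1 0.59 (-0.12 to 1.31) and Oma1 0.50 (-0.21 to 1.21), all as log2 fold changes with adjusted p from 0.636 to 0.737. Opa1, the substrate of both proteases, had a log2 fold change of 0.01 (-0.73 to 0.75). Mfn2 had -0.21 (-1.07 to 0.65) on the same scale. The KO library lay outside the WT range for 8 of 10 genes, against 79.6% of all genes tested: 5 were above (35.9% of all genes) and 3 below (43.7%). Fibroblast markers summed to 1086 CPM in KO mTEC, against 149 to 169 CPM in WT mTECs, with 0 of 7 at 0 in any mTEC library. Erythroid markers summed to 1448 CPM in KO mTEC, with 1 of 5 at 0, against 41.5 to 87.3 CPM in WT mTECs. G2 and mitosis genes summed to 575 CPM in KO mTEC, against 303 to 397 CPM in WT mTECs, with all 12 positive. Immediate-early genes summed to 3949 CPM in KO mTEC, against 1712 to 2645 CPM in WT mTECs, with all 14 positive. The part of these sets in the values of the 10 genes was not tested.

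In the cortex, where Mcl1 RNA fell to 8.36 CPM, KO cTEC was set against WT cTECs. None of the 10 genes was called by edgeR, DESeq2 or limma-voom, while edgeR called 17.5% of all genes, 5.10% higher and 12.4% lower. At an unadjusted p under 0.05 there was 1, Mff, at 192.2 CPM in KO cTEC against 134.4 ± 16.8 CPM in WT cTECs (SD, n = 4), a log2 fold change of 0.51 with a 95% interval of 0.07 to 0.96 and an adjusted p of 0.107. Without WT cTEC 1 it passed at 0.58 (adjusted p = 0.0446). Mfn2 had a log2 fold change of 0.57 (-0.16 to 1.30), Oma1 one of 0.46 (-0.18 to 1.09) and Dnm1l one of 0.30 (-0.20 to 0.81), and for these and Mff the KO library was above all WT libraries. That made 4 of 10 above and 0 below, against 29.1% and 33.0% of all genes tested (62.0% in either direction). Beside the tuft cell markers given above, dendritic cell and macrophage markers summed to 12.3 CPM in KO cTEC (3 of 10 at 0), against 148 to 251 CPM in WT cTECs (up to 4 at 0). Erythroid markers summed to 657 CPM in KO cTEC, against 22.5 to 116 CPM in WT cTECs, and all 4 that were tested were called higher. Fibroblast markers summed to 1064 CPM in KO cTEC, against 711 to 957 CPM in WT cTECs, with 0 of 7 at 0 and 2 called higher. The part of these, of the population markers given above and of the mitosis genes given below in the values was not tested.

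The differences in cortex can be set beside those of all genes. The largest among the 10 was 0.57 on the log2 scale and the median absolute log2 fold change was 0.18. Over all genes tested the median absolute value was 0.66, and 37.9% had one over 1. Over the genes whose average log2 CPM was 3 or more, these were 0.47 and 24.3%. The direction of several members also depends on which WT cTEC libraries are used: against WT cTEC 1 alone, Dnm1l, Mief1, Mief2, Opa1, Oma1 and Yme1l1 changed sign, to -0.045, -0.054, -0.58, -0.51, -0.034 and -0.19 on the log2 scale, none of them called.

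The difference between KO and WT in mTECs minus that in cTECs was tested directly, with the Mcl1 levels given above. No member passed by edgeR, DESeq2 or limma-voom, and none had an unadjusted p under 0.05, where edgeR called 6.81% of all genes, 6.16% with a positive difference and 0.644% with a negative one. The widest differences were those of Mfn2, -0.78 (95% interval -1.92 to 0.37, adjusted p = 0.452), and Mfn1, 0.62 (-0.37 to 1.61, adjusted p = 0.492). The mitofusins thus lay on opposite sides of 0, within intervals that include it. Over both populations together, in an additive fit, no member passed by the same 3 tools, while edgeR called 0.204% of all genes, 0.182% higher and 0.0220% lower. That fit takes the KO mTEC and KO cTEC libraries as repeats of a genotype. They are different populations, and a loss of Mcl1 RNA is not established in KO mTEC. Oma1 had a log2 fold change of 0.48 (0.02 to 0.94, adjusted p = 0.254), Yme1l1 of 0.48 (-0.01 to 0.96, adjusted p = 0.280) and Mff of 0.38 (0.05 to 0.72, adjusted p = 0.224). Of these, Oma1 and Mff had an unadjusted p under 0.05. Both KO libraries were above every WT library of their population for Mff and Oma1. Of all genes tested, 35.9% were above in KO mTEC and 29.1% in KO cTEC, and the share above in both was not computed.

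A further 77 genes of mitochondrial shape and upkeep were listed in 7 groups, and 76 were tested. Between WT mTECs and WT cTECs, 9 were called higher and 15 lower, against the 13.2% and 13.9% of all genes given above. These calls depend on which libraries are used, and most on the pair of WT mTECs: 21 of the 24 were lost without WT mTEC 1 and all 24 without WT mTEC 2. Of the same 24, 9, 13 and 6 were lost without WT cTEC 2, 3 and 4, none without WT cTEC 1, and 9 against WT cTEC 1 alone. With WT libraries 1 and 2 only, 18 were lost with the replicate block and 15 with no block. No sign changed in these fits, and adjusted p reached 0.390 (edgeR). Of 13 further fission genes 2 were higher: Inf2, a formin that builds actin at sites of division, with 51.5 ± 17.4 CPM in mTECs against 13.0 ± 4.73 CPM in cTECs (log2 fold change 2.03 ± 0.35, adjusted p = 0.0062), and Cdk1, the mitotic kinase that phosphorylates DRP1, with 59.0 ± 17.7 CPM in mTECs against 14.2 ± 9.05 CPM in cTECs (2.10 ± 0.44, adjusted p = 0.0120). Of 12 G2 and mitosis genes, 6 were called higher in WT mTECs than in WT cTECs and all 12 were positive, with a median log2 fold change of 1.53 and sums of 303 to 397 CPM in WT mTECs, against 63.7 to 250.5 CPM in WT cTECs. Their part in the Cdk1 value was not tested. Of 9 further fusion genes tested, 2 were lower and 1 higher. Miga2, which encodes mitoguardin 2, a promoter of fusion, had 9.83 ± 0.035 CPM in mTECs against 30.8 ± 13.0 CPM in cTECs (-1.59 ± 0.37, adjusted p = 0.0166), and the prohibitin gene Phb changed by -0.58 ± 0.18 (adjusted p = 0.0409, edgeR), a call lost with RLE scaling, with no filter and with DESeq2 (adjusted p = 0.0589, 0.0503 and 0.0542). Marchf5, a ubiquitin ligase of the outer membrane, was higher by 0.52 ± 0.16 (adjusted p = 0.0470, edgeR), a call lost without a filter on low counts (adjusted p = 0.0579).

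Of 9 other mitochondrial proteases and AAA enzymes, 3 were lower in WT mTECs than in WT cTECs and none higher: Afg3l2, Afg3l1 and Lonp1. Afg3l2, a subunit of the m-AAA protease, had 42.0 CPM in both mTEC libraries against 83.8 ± 14.0 CPM in cTECs (log2 fold change -0.95 ± 0.19, adjusted p = 0.0103). Among 11 genes of the MICOS complex and cristae 2 were lower, Samm50 and Dnajc11, with Samm50 at -0.63 ± 0.19 (adjusted p = 0.0448), a call lost with RLE scaling (adjusted p = 0.0684), as was that of Dnajc11 (adjusted p = 0.0549, edgeR). Of 6 transport genes 2 were lower, Armcx3 (-1.08 ± 0.24, adjusted p = 0.0150) and Trak1, an adaptor for mitochondrial motors. Of 10 mitophagy genes 4 were lower and 2 higher: the receptor gene Sqstm1 was lower (-1.50 ± 0.23, adjusted p = 0.0039), and Pink1, the kinase that marks damaged mitochondria, was at 54.4 ± 3.11 CPM in mTECs against 134.9 ± 24.9 CPM in cTECs (-1.26 ± 0.20, adjusted p = 0.0047). Bnip3, a receptor induced by low oxygen, was higher (1.33 ± 0.31, adjusted p = 0.0174).

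Genes taken as a measure of mitochondrial content gave no common direction between the WT populations. Of 18, 4 were higher and 2 lower, with a median log2 fold change of -0.03. Polg, the catalytic subunit of the mitochondrial DNA polymerase, was lower (-1.03 ± 0.28, adjusted p = 0.0281) and Polg2, its accessory subunit, higher (0.85 ± 0.17, adjusted p = 0.0108). Their summed level was 1453 to 1556 CPM in WT mTECs, against 1443 to 1577 CPM in WT cTECs. Transcripts of the mitochondrial genome took 3.34 and 3.07% of counts in WT mTECs, against 1.08 to 1.87% in WT cTECs.

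In KO cTEC, 4 of the 76 further genes were higher and none lower, against the background shares of 5.10% and 12.4%. The share called higher was close to the background. Of the 4, 3 were in the group of 9 further fusion genes: Phb and Phb2, which encode prohibitins of the inner membrane, and Stoml2, which encodes stomatin-like protein 2, a protein that binds prohibitins and scaffolds YME1L together with the protease PARL. Phb was at 63.3 CPM in KO cTEC, against 32.9, 32.4, 33.3 and 29.5 CPM in WT cTECs. Its log2 fold change was 0.98 ± 0.21 (adjusted p = 0.0140). Phb2 was at 259 CPM in KO cTEC, against 130.6, 133.9, 143.0 and 160.1 CPM in WT cTECs (log2 fold change 0.86 ± 0.19, adjusted p = 0.0163). Stoml2 was at 118.6 CPM in KO cTEC, against 85.6, 50.5, 62.1 and 63.2 CPM in WT cTECs (0.86 ± 0.25, adjusted p = 0.0499). The KO library was above all WT libraries for each. Phb and Phb2 passed in every alternative run, while Stoml2 missed with RLE scaling, without a filter, with limma-voom and without any of 5 single WT libraries (adjusted p from 0.0517 to 0.100), and against WT cTEC 1 alone (0.41, adjusted p = 0.179). For the protease genes, Oma1 and Yme1l1 had log2 fold changes of 0.46 and 0.33 in the same comparison and did not pass.

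The remaining called gene in KO cTEC was Cdk1, at 78.8 CPM in KO cTEC against 27.5, 7.97, 8.83 and 12.7 CPM in WT cTECs (2.48 ± 0.52, adjusted p = 0.0138). Of 12 G2 and mitosis genes, 9 were called higher in KO cTEC, with a sum of 786 CPM there against 63.7 to 250.5 CPM in WT cTECs and 0 of 12 at 0. Their part in the values of the fusion and fission genes was not tested. The 18 content genes had 0 calls in KO cTEC by edgeR, with 5 at an unadjusted p under 0.05, and a median log2 fold change of 0.30, against -0.14 over all genes tested and 0.05 over those with an average log2 CPM of 3 or more. They summed to 1918 CPM in KO cTEC, against 1443 to 1577 CPM in WT cTECs, while transcripts of the mitochondrial genome took 0.698% of counts in KO cTEC, against 1.08 to 1.87% in WT cTECs. In KO mTEC none of the 76 further genes passed. The 18 content genes summed to 1700 CPM in KO mTEC, against 1453 to 1556 CPM in WT mTECs. Transcripts of the mitochondrial genome took 2.14% of counts in KO mTEC, against 3.34 and 3.07% in WT mTECs. Phb, Phb2 and Stoml2 were at 27.3, 154.4 and 72.4 CPM in KO mTEC, against 20.7 ± 2.97, 109.99 ± 8.97 and 52.8 ± 2.93 CPM in WT mTECs (SD, n = 2).

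**Figure D4:**
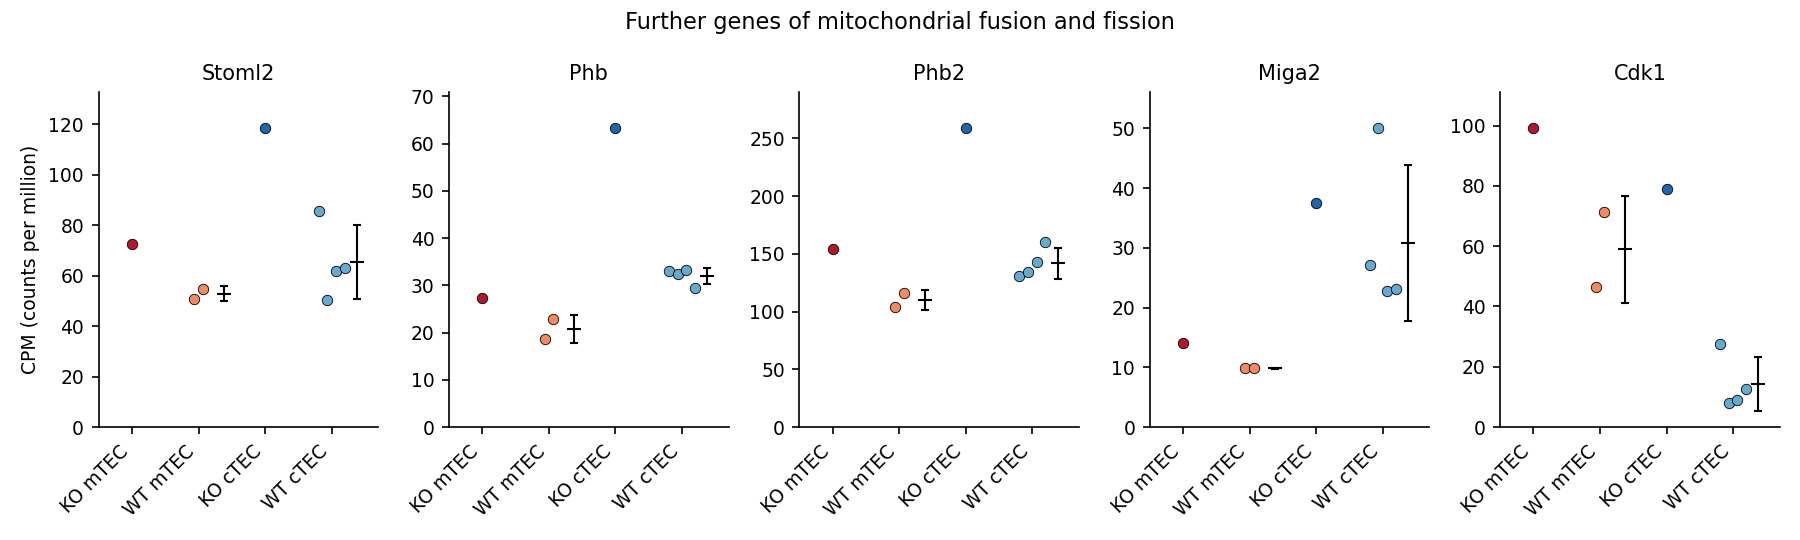
CPM of Stoml2, Phb, Phb2, Miga2 and Cdk1 (vertical axes, from 0) in each library, with mean ± SD for the WT groups. KO cTEC is above every WT cTEC library for Stoml2, Phb, Phb2 and Cdk1, and both WT mTEC libraries are below every WT cTEC library for Miga2.

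Genes with the most similar pattern were sought for the 3 members with the widest span, Mfn2, Mief2 and Opa1. The measure was the root mean square difference of centred log2 CPM over the 8 libraries, among 10958 other genes that have a symbol and an average log2 CPM of 3 or more. Closest to Mfn2 were Sec24d, a cargo subunit of the COPII coat (0.13), Fam83h (0.17) and the ubiquitin ligase gene Rffl (0.18). On the TMM-scaled CPM, Sec24d was at 48.2 in KO mTEC, 57.4 and 62.3 in WT mTECs, 251.7 in KO cTEC, and 164.1, 155.9, 148.2 and 78.3 in WT cTECs, with WT cTEC 4 the lowest cTEC library as for Mfn2. Closest to Mief2 were Rab22a (0.11), the clathrin heavy chain gene Cltc (0.12) and Uso1 (0.12), and closest to Opa1 were Gtf3c3 (0.08), Zfp654 (0.10) and Pqlc3 (0.10).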

How the data were processed

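The authors deposited raw counts per Entrez gene and library, whole numbers with no normalization, beside a length per gene. The submitters' processing notes name featureCounts and mm10. The aligner, annotation, versions and strand setting are not given. Per the labels' protocols, libraries were made from frozen pellets with a low-input full-length cDNA kit, tagmented and sequenced as paired ends. The 8 columns of a series-wide table match no label and were not used.

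Symbols came from RefSeq (GRCm38.p6) for 25275 identifiers (93.0%). Genes reaching a CPM of 1 in 2 or more libraries were kept (18163). Counts were scaled by TMM (factors 0.949 to 1.04) and tested with edgeR 4.0.16 (robust quasi-likelihood F test, R 4.3.3), two-sided, with Benjamini-Hochberg adjustment over all genes and a threshold of 0.05. One fit had 1 mean per group (4 residual degrees of freedom) and the other population and genotype as additive terms (5). SE is the absolute log2 fold change over the square root of F, and 95% intervals use the t quantile of the fit. Each KO group is 1 library, assumed to vary like the WT libraries. limma 3.58.1 and DESeq2 1.42.0 served as alternatives, and the fits were checked on simulated counts. The simulation used the same dispersion for every gene and library, so it cannot speak for the spread within these groups. Reads carry no molecular identifiers, so depth speaks for counting error only.

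WT libraries 1 and 2 share numbers across populations. Same-numbered libraries deviated from their group means with correlations across genes of -0.15 and -0.02. With 2 WT mTEC libraries the deviations there are mirror images, so these values cannot decide whether the numbers mark pairs. The numbers were not taken to pair libraries, and a fit with them as a block is given below. The members, gene lists and naming rule were chosen with earlier results of these data known. The rule named all members and, per further list, comparison and direction, the called gene with the largest change whose average log2 CPM was 3 or more. Afg3l1, Lonp1, Dnajc11, Trak1, Inf2, Pink1, Phb (in WT mTECs), Phb2 and Stoml2 were named after their values were seen. The result of 1 further gene is not reported here.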

Additional observations from a re-analysis of the deposited data

How the results depend on the processing

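Mfn2 in WT mTECs against WT cTECs was lower in all 15 alternatives run (-1.51 to -1.14 on the log2 scale) and lost its call in 2, without either WT mTEC library. In the replicate block on WT libraries 1 and 2 it was -1.51 (adjusted p = 0.0126), with 2094 genes called, against 2823 without the block, a partner fit chosen after seeing the data. KO libraries share no pair of numbers with WT libraries, so no block was possible there. The number of the 10 genes called in WT mTECs against WT cTECs was 2 with DESeq2, 5 against WT cTEC 1 alone and 0 to 2 when single libraries were left out. In KO cTEC it was 0 to 1 when single libraries were left out. In the difference of KO effects it was 1 against WT cTEC 1 alone.

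Counts over all genes when single libraries were left out were 603 to 6762 (WT mTEC against WT cTEC), 2256 to 4182 (KO cTEC), 0 to 7 (KO mTEC), 649 to 1849 (difference of KO effects) and 0 to 3233 (both populations). KO cTEC gave 1726 with limma-voom and 6078 against WT cTEC 1 alone. KO mTEC gave 139 with DESeq2 and 734 without WT cTECs 2 to 4. The difference of KO effects gave 2050, 104 and 4110 with DESeq2, limma-voom and WT cTEC 1 alone. Both populations gave 58 without a filter, 1526 with DESeq2, 202 with limma-voom and 0 with WT cTEC 1 alone. The causes were not tested.

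Signs turned among small, uncalled log2 fold changes. With WT cTEC 1 as the only WT cTEC library, Dnm1l (-0.24) and Mief2 (-0.51) turned in WT mTEC against WT cTEC. In KO cTEC, Dnm1l (-0.045), Mief1 (-0.054), Mief2 (-0.58), Opa1 (-0.51), Oma1 (-0.034) and Yme1l1 (-0.19) did. In the difference of KO effects Dnm1l (0.15) and Opa1 (0.53) did, and over both populations Fis1 (0.0022), Mief2 (-0.12) and Opa1 (-0.21). With WT libraries 1 and 2, Dnm1l was -0.019 with the block and -0.031 without, and Mief2 -0.21 and -0.24. With RLE or DESeq2, Mff was 0.016 in WT mTEC against WT cTEC, Opa1 0.012 in the difference of KO effects, and Fis1 0.0082 and 0.0080 over both populations. Mfn1 in KO cTEC was 0.011 with limma-voom, and Mcl1 in WT mTEC against WT cTEC was 0.25 in the additive model.

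When single libraries were left out, the ranges that crossed 0 were as follows. In WT mTEC against WT cTEC they were -0.064 to 0.19 for Dnm1l, -0.11 to 0.018 for Mff and -0.10 to 0.31 for Mief2. In KO cTEC they were -0.0093 to 0.15 for Fis1, -0.089 to 0.28 for Mief2, -0.13 to 0.078 for Mfn1 and -0.076 to 0.20 for Opa1. In KO mTEC they were -0.030 to 0.22 for Dnm1l and -0.27 to 0.024 for Mief1. In the difference of KO effects they were -0.063 to 0.31 for Mief2, -0.19 to 0.086 for Opa1 and -0.12 to 0.15 for Oma1. Over both populations they were -0.062 to 0.056 for Fis1, -0.13 to 0.049 for Mief1, -0.033 to 0.59 for Mfn1, -0.21 to 0.57 for Mfn2 and -0.036 to 0.11 for Opa1. Counting error limits Mief2 most, with 130 counts in its lowest library.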
